A study of Homo sapiens with 10 samples.

Results

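The genes described here are 34 markers of DNA replication and mitosis, looked up by symbol in tables of 30357 named genes, and all 34 were found. They comprise 12 genes of S phase, 21 of G2 and mitosis (G2/M) and CCNE2, a cyclin of the G1/S transition that is shown on its own. The samples were cultures of neurons made from RUES2, an established line of human embryonic stem cells, edited to carry a tdTomato reporter at AVIL (AVIL:tdT), which encodes advillin of sensory neurons. All were collected on day 60 of differentiation. The libraries were 4 of a nociceptor protocol (pain-sensing neurons), 3 of a mechanoreceptor protocol (touch-sensing neurons) and 3 of a proprioceptor protocol (neurons that sense muscle stretch), written N, M and P with the replicate number. All libraries thus came from 1 edited line. The labels name biological replicates but do not say if each was its own differentiation, and p-values therefore reflect spread among these libraries that may be technical. The labels do not state whether cells were sorted for the reporter. The series' design text speaks of droplet sequencing, but each library here is 1 bulk column with no cell barcodes, so fewer cells of a type and less RNA per cell cannot be told apart.

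A cell about to divide first loads the MCM helicase onto replication origins with the help of CDC6 and CDT1, then copies its DNA with the sliding clamp PCNA and with nucleotides supplied by RRM2 and TYMS. Rising cyclin A and cyclin B then switch on the kinase CDK1, the mitotic kinases and spindle proteins part the chromosomes, and the anaphase-promoting complex destroys the cyclins to end mitosis. E2F factors drive the S-phase genes, while G2/M genes are driven later by the MuvB complex with MYBL2 and FOXM1, which acts at CHR elements together with the factor NF-Y at CCAAT boxes. Neurons leave this cycle for good when they form, whereas glia, fibroblasts and progenitors in the same culture can go on dividing.

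The promoters of the members were searched for these elements. RefSeq promoters (GRCh38.p14, 250 bases before to 50 after the start) were found for 27 of the 34 members, and were not used here for MCM4, MCM5, AURKA, TPX2, BIRC5, UBE2C and CCNE2. They were searched on both strands for E2F words (TTTCCCGC, TTTGGCGC, TTTGCCGC or TTTCGCGC), for CHR words (TTTGAA or TTTAAA) and for the CCAAT word, and E2F words read on opposite strands can overlap each other. The 3 S-phase and the 3 G2/M members with the smallest p that had an entry are printed 5′ to 3′ on the strand of the gene, from 250 bases before to 30 bases after the start, with every E2F, CHR and CCAAT match in capitals. They are TYMS (chr18:657403-657682, plus strand), PCNA (chr20:5126593-5126872, minus strand), RRM2 (chr2:10122489-10122768, plus strand), ASPM (chr1:197146640-197146919, minus strand), NUSAP1 (chr15:41332631-41332910, plus strand) and CENPF (chr1:214602945-214603224, plus strand).
TYMS: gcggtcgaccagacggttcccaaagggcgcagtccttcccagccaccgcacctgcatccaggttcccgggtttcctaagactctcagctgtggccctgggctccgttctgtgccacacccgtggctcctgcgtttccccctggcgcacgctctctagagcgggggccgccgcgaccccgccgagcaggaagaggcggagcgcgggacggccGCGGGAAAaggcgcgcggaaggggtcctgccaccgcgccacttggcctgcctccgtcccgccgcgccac
PCNA: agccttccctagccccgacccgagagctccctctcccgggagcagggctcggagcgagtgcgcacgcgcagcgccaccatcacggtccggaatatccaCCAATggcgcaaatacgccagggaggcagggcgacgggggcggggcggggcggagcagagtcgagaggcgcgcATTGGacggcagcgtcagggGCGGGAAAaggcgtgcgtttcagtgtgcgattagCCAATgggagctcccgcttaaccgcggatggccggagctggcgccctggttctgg
RRM2: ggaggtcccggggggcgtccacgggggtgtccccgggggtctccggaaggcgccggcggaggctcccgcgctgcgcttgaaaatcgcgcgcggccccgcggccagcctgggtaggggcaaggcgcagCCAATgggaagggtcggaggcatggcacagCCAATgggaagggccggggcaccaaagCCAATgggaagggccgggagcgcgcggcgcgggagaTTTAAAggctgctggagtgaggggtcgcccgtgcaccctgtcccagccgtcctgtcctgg
ASPM: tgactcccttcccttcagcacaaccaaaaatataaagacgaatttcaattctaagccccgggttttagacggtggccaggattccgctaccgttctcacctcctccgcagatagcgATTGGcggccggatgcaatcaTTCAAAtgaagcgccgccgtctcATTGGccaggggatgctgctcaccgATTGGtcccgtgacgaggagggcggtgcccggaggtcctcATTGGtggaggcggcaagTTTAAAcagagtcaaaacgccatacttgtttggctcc
NUSAP1: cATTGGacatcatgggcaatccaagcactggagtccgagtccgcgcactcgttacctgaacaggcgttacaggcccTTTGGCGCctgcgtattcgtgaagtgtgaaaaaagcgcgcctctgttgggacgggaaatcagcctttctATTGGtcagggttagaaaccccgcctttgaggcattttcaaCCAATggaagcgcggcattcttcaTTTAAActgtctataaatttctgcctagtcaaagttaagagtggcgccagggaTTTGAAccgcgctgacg
CENPF: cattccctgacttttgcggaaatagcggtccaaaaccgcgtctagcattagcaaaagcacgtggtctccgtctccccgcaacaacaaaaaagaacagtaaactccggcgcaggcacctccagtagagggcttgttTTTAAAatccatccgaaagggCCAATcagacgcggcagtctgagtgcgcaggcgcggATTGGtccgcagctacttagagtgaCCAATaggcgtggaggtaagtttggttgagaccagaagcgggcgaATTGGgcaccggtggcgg
In TYMS and PCNA the run GCGGGAAA is an E2F word read on the other strand, and RRM2 has no E2F word but 3 CCAAT words and 1 CHR word, a pair of elements most G2/M members had. ASPM and CENPF have CHR and CCAAT words and no E2F word, and NUSAP1 has words of all 3 kinds.

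E2F words were present in 9 of the 10 S-phase promoters (90%), in 3 of the 17 G2/M promoters (17.6%; CDK1, CENPA and NUSAP1) and in 3.99% of the 27305 genes of the promoter table. CHR words showed the opposite split, with 1 of 10 S-phase promoters (10.0%, RRM2), 14 of 17 G2/M promoters (82.4%) and 27.9% of all genes. The CCAAT word was in 7 of 10 S-phase (70.0%), 14 of 17 G2/M (82.4%) and 39.7% of all promoters, so it did not split the classes in the same way. AURKB, BUB1 and CCNA2 were the G2/M members without a CHR word. For the 5 members with several promoter entries, a word in any entry was counted. A match is a run of letters and not a measured binding site.

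**Figure D1:**
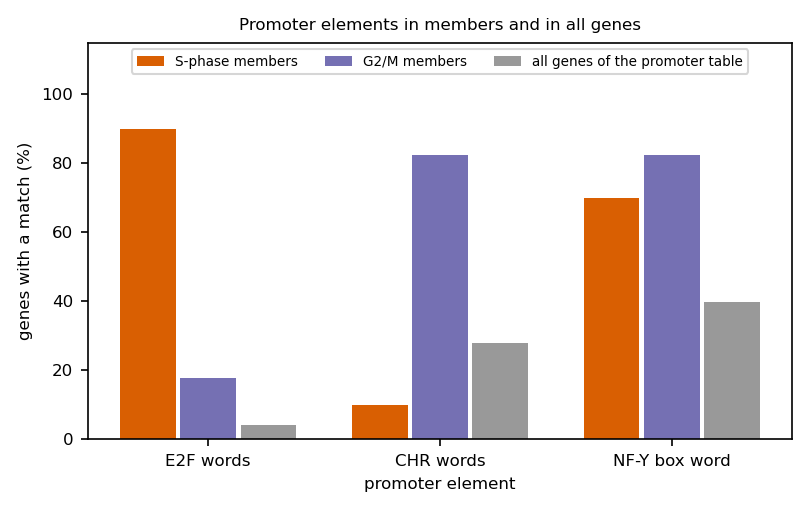
Share of genes (%, vertical axis) whose promoter holds an E2F, CHR or CCAAT (NF-Y box) word, for the 10 S-phase members (orange), the 17 G2/M members (purple) and all 27305 genes of the RefSeq promoter table (grey). E2F words reach 90% in S-phase and CHR words 82.4% in G2/M members.

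The named genes received 27891186 to 44541262 counts per library. Each of 13 neuronal markers reached a TPM (transcript abundance corrected for gene length and scaled to library size) of at least 1 in all libraries. Their sum was 11022, 9973, 8275 and 20212 in N, 19151, 24565 and 14578 in M and 22785, 14514 and 25931 in P, lowest in N1 to N3, the libraries with high levels of most members, and its part in the results was not tested. Some markers of other cells were present too. The summed TPM of 12 Schwann and satellite glia markers was 1015 to 5989 in N, 449 to 2282 in M and 193 to 2728 in P. That of 14 fibroblast markers was 994 to 4212, 526 to 1990 and 467 to 1866. Of the glia markers, 11 to 12 reached a TPM of 1 in N, 4 to 11 in M and 7 to 11 in P. Of the fibroblast markers, 9 to 12 did in N, 5 to 12 in M and 4 to 11 in P. The sums thus rest on few markers in some libraries. Endothelial markers summed to at most 0.574. Exons of 11 members overlap those of another gene (MCM2, MCM7, RRM2, TYMS, GINS2, CCNA2, ANLN, BUB1B, PLK1, NUSAP1 and CCNE2), and as the kit does not mark strand, reads there cannot be told apart, so these values are less certain.

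All 34 members passed the filter on low counts, together with 16130 genes in all. The level of each class was taken as the median log2(TPM + 1) over its members. The S-phase level was 3.90, 4.36, 4.96 and 2.97 in N1 to N4, 2.78, 2.82 and 3.06 in M1 to M3 and 2.22, 3.99 and 2.91 in P1 to P3. The G2/M level was 3.10, 3.38, 3.47 and 1.64 in N, 1.08, 0.66 and 1.68 in M and 0.74, 2.91 and 1.07 in P. Libraries N1, N2, N3 and P2 stood high in both classes, and the protocols overlapped in both. In every library the G2/M level was below the S-phase level. The difference was 1.15 ± 0.31 in N (SD, n = 4), 1.75 ± 0.39 in M (SD, n = 3) and 1.47 ± 0.38 in P (SD, n = 3), with overlapping libraries. On other scales N and M did not overlap: N was at most 1.64 and M at least 1.69 on log2(TPM + 0.1), 1.65 and 1.89 on log2 CPM (reads scaled to library size), and 1.23 and 1.45 with means in place of medians over the members. P overlapped both on each of these. N and M overlapped with CCNE2 counted among the S-phase members (N at most 1.49, M at least 1.25) and without the MCM genes (0.82 and 0.64). As counts of genes, 0, 0, 0 and 5 of the 21 G2/M members lay below a TPM of 1 in N1 to N4, 10, 15 and 4 in M1 to M3 and 12, 0 and 9 in P1 to P3. Of the 12 S-phase members, at most 2 lay below it in a library (M2).

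**Figure D2:**
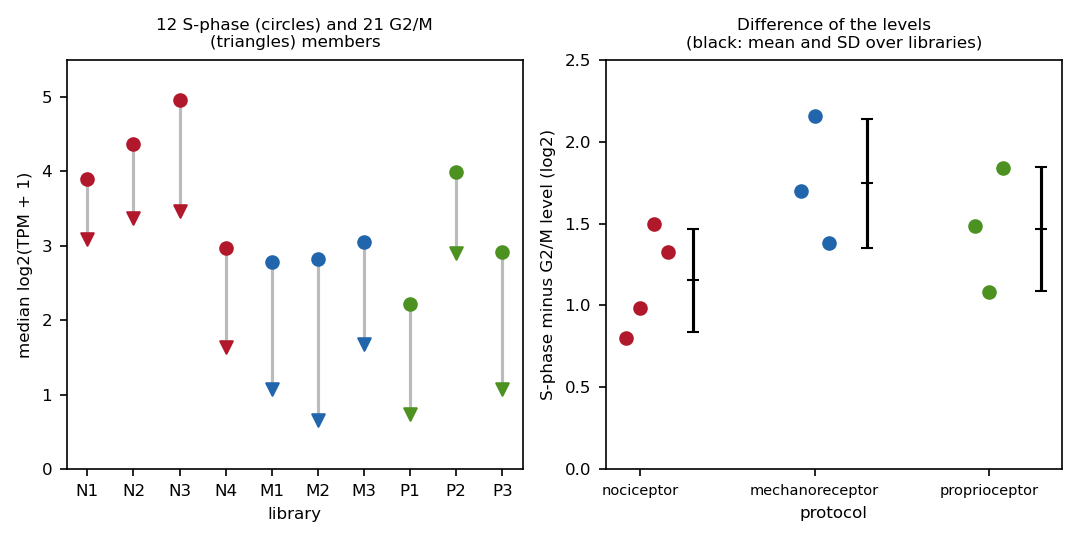
Left, median log2(TPM + 1) of the 12 S-phase (circles) and 21 G2/M members (triangles) in each library of the nociceptor (red, N), mechanoreceptor (blue, M) and proprioceptor (green, P) protocol. Right, S-phase minus G2/M level by protocol, with points for libraries and black marks for mean and SD: the G2/M level is lower in each of the 10 libraries, by 0.80 to 2.16.

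Mechanoreceptor cultures were compared with nociceptor cultures first. A negative log2 fold change was fitted for 32 of the 34 members (49.9% of all tested genes were below 0), and their median was -2.60 against 0.00 over all genes. The S-phase median was -1.51, from -3.94 (RRM2) to 0.22 (CDT1), and the G2/M median was -2.79, from -4.94 (NUSAP1) to -0.42 (AURKA). By edgeR, 0 members and 0 genes passed the adjusted threshold of 0.05 (0.0% called, smallest adjusted p = 0.598). At an unadjusted p under 0.05 there were 27 members, all lower in M, among 1320 genes (8.18%), of which 741 were lower (4.59%) and 579 higher (3.59%). These 27 were 8 S-phase members, 18 G2/M members and CCNE2. DESeq2 called 14 members, each lower in M, among 137 genes (0.79%; 0.68% lower): NUSAP1, ASPM, CCNA2, TOP2A, UBE2C, CENPF, CDK1, RRM2, BUB1B, TYMS, CCNB2, CCNE2, BIRC5 and ANLN. In TPM, 7 members had every M library below every N library (ASPM, CDK1, CENPF, MKI67, NUSAP1, PLK1 and UBE2C), against 1.84% of all tested genes.

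Proprioceptor cultures were compared with the same nociceptor libraries, so the 2 comparisons share their controls. Here 33 of 34 members were below 0 (47.8% of all genes), with a median of -1.66 against 0.03 over all genes, -0.88 for S-phase and -1.76 for G2/M members. By edgeR 0 members and 0 genes passed the adjusted threshold (0.0%, smallest adjusted p = 0.665), and 10 members were lower at an unadjusted p under 0.05 among 998 genes (6.19%; lower 3.14%, higher 3.05%). These were ANLN, BUB1, BUB1B, CCNA2, CCNE2, CDC6, CENPF, NUSAP1, PCNA and TPX2. DESeq2 called 31 genes (0.165%; 0.096% lower) and 0 members, and no member separated the groups in TPM (0 of 34; 1.45% of all genes lay lower without overlap). The count at an unadjusted p depended on single libraries: it was 24 without P2, 20 without N4, 5 without N1, 4 without N2 or N3, 1 without P1 and 0 without P3.

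Proprioceptor libraries were last compared with mechanoreceptor libraries. The median log2 fold change was 0.79 (0.04 over all genes), with 31 of 34 members above 0 (46.3% of all genes were below 0), and it was -0.12 without P2. By edgeR 0 members and 0 genes passed (0.0%, smallest adjusted p = 1.00) and 1 member, ASPM, had an unadjusted p under 0.05, among 241 genes (1.49%; 0.744% higher, 0.75% lower). DESeq2 called 1 gene (0.0041%) and 0 members. GINS2, a subunit of the GINS replication complex, was higher in all P than in all M libraries, and MCM6 was lower, against 0.868% and 5.02% of all genes. The F test across all 3 protocols called 0 genes and 0 members by edgeR (0.0%, smallest adjusted p = 0.813; 925 genes, or 5.73%, at an unadjusted p under 0.05), while DESeq2 called 91 genes (0.511%) with 9 members among them.

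**Figure D3:**
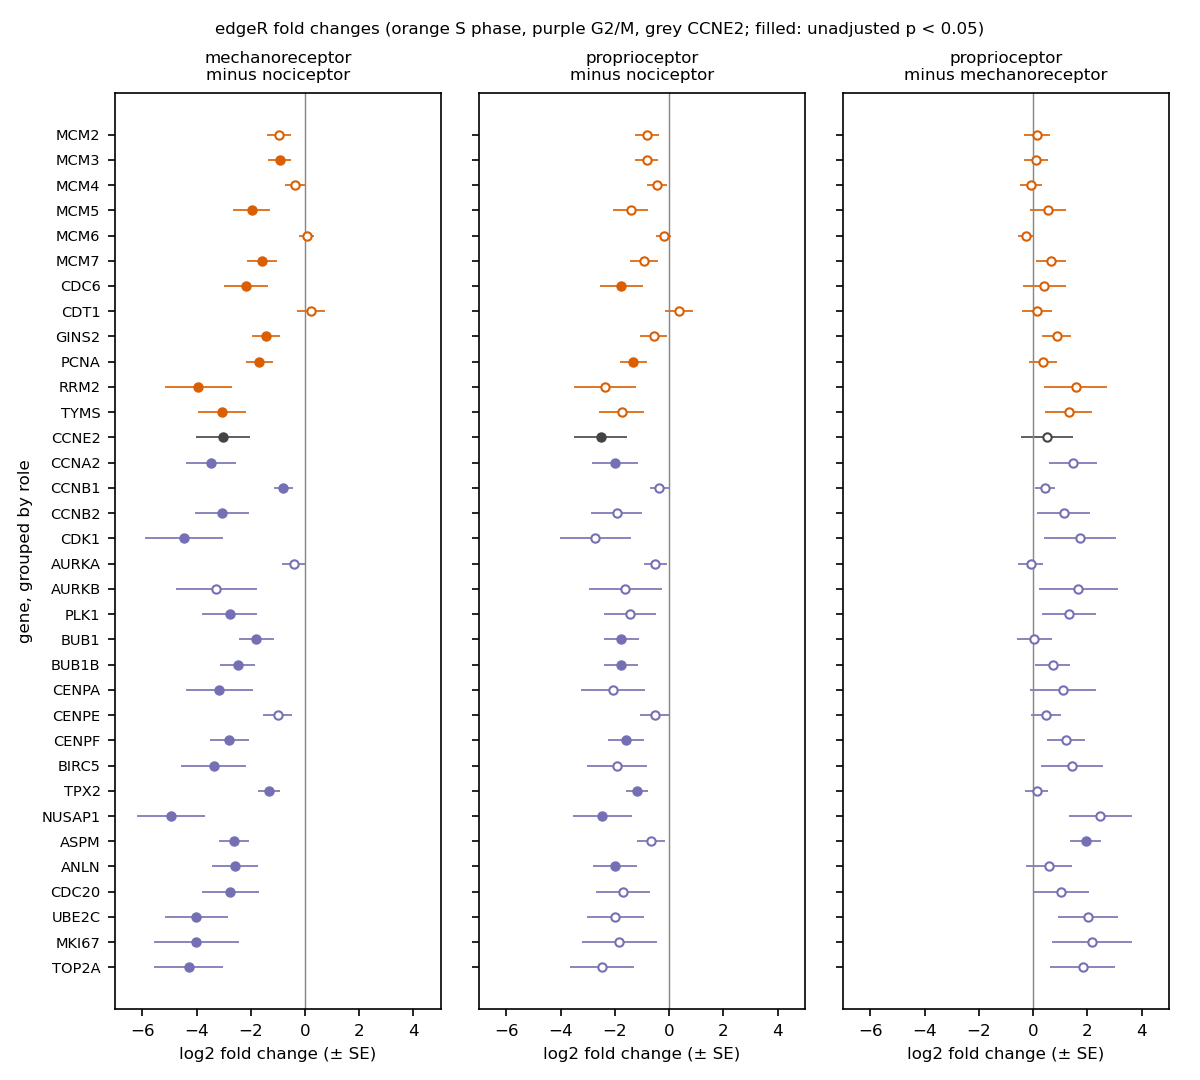
edgeR log2 fold changes (horizontal axis, bars ± SE) of the 34 members in the 3 contrasts, for S-phase genes (orange), G2/M genes (purple) and CCNE2 (grey), filled where the unadjusted p is under 0.05. Filled points number 27, 10 and 1 from left to right, and no member passes after adjustment.

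Origin licensing and the replicative helicase are served by 9 members, among them MCM6 and CDT1, the only members with a fold change above 0 in M. MCM4 and MCM5 are subunits of the ring that unwinds DNA. MCM4 had a TPM of 40.9, 23.4, 32.3 and 13.0 in N1 to N4, 21.3, 20.5 and 22.1 in M1 to M3 and 6.89, 26 and 21.8 in P1 to P3. The groups overlapped, with P1 lowest (log2 fold change -0.38 ± 0.37 (SE) in M and -0.46 ± 0.37 in P against N). MCM5 had 8.92, 18.4, 30.3 and 6.14, then 4.45, 2.82 and 6.63, then 2.08, 13.8 and 5.04. N2, N3 and P2 were highest and the groups overlapped (-1.97 ± 0.67 in M and -1.41 ± 0.65 in P). MCM6, another subunit, ranged only from 11.6 to 27.4 over all libraries and was highest in M1 (0.06 ± 0.28 in M). CDT1, the loading factor, had 2.89 to 8.20, with M2 highest (0.22 ± 0.53 in M and 0.37 ± 0.53 in P). CDC6, its partner, ranged from 0.577 to 9.15 (-2.18 ± 0.80 in M), and GINS2 from 2.57 to 11.4 (-1.44 ± 0.52 in M). MCM2, MCM3 and MCM7 had -0.95 ± 0.45, -0.93 ± 0.41 and -1.58 ± 0.54 in M. Of these 9 genes, 5 were lower at an unadjusted p in M and 1 in P.

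The 3 clamp and nucleotide-supply genes had a median log2 fold change of -3.05 in M and -1.74 in P, beside -0.95 and -0.81 for the licensing and helicase genes, and the difference between these groups of genes was not tested. PCNA, the sliding clamp of DNA polymerases, had a TPM of 95.2, 93.5, 95.9 and 28.1 in N, 27.6, 17.1 and 35.6 in M and 22.1, 45.8 and 17.0 in P. N1 to N3 exceeded every other library, and N4 lay among the M and P libraries (-1.69 ± 0.50 in M and -1.32 ± 0.50 in P). TYMS, thymidylate synthase, had 45, 61.5, 93.6 and 10.4, then 4.13, 2.29 and 14, then 3.10, 30.6 and 17.9. N4 was again below the rest of its group and below M3, P2 and P3 (-3.05 ± 0.89 in M and -1.74 ± 0.84 in P). RRM2, the regulated subunit of ribonucleotide reductase, ranged from 0.477 in M2 to 30.1 in N3 (-3.94 ± 1.24 in M). It had the largest fitted difference of the S-phase members. Of the 10 S-phase members with a promoter entry, it was also the one with a CHR word and no E2F word. A link between promoter words and fold changes was not tested.

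Cyclins split between CCNB1 and the rest. CCNE2, cyclin E2 of the G1/S transition, had a TPM of 15.1, 10.6, 12.3 and 1.87 in N, 3.27, 0.725 and 1.98 in M and 0.363, 4.65 and 1.16 in P. N1 to N3 were higher than all other libraries (-3.04 ± 1.00 in M and -2.52 ± 0.97 in P). CCNA2, cyclin A2 of S phase and G2, had 7.56, 7.71, 5.73 and 0.855, then 0.397, 0.258 and 0.972, then 0.244, 3.21 and 0.946. P2 came next after N1 to N3, and N4 overlapped both other groups (-3.48 ± 0.93 in M and -2.0 ± 0.86 in P). CCNB1, cyclin B1, the partner of CDK1 at mitosis (GRCh38.p14 chromosome 5, 69167150 to 69178245), had 57.9, 56.7, 49.1 and 38.0, then 31.6, 39.0 and 23.8, then 36.9, 47.1 and 25.7. It was at least 23.8 in every library, with the groups overlapping (-0.80 ± 0.36 in M and -0.36 ± 0.36 in P). CDK1 itself, chosen for this comparison after its values were seen, ranged from 0.135 in M2 to 69.4 in N1 (-4.45 ± 1.44 in M and -2.72 ± 1.31 in P). In M2 the cyclin thus had 39.0 TPM and its kinase 0.135. CCNB2, cyclin B2, had 0.882 to 18.1 (-3.05 ± 1.00 in M), the pattern of CDK1 rather than that of CCNB1.

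Among the mitotic kinases, BUB1B, a spindle checkpoint kinase-like protein, had a TPM of 5.66, 3.71, 4.20 and 1.17 in N, 1.11, 1.11 and 1.62 in M and 1.28, 2.46 and 1.60 in P. N1 to N3 were highest, and N4 lay within the range of M (-2.48 ± 0.65 in M and -1.76 ± 0.63 in P). AURKA, Aurora kinase A of the centrosome, had 9.93, 9.38, 4.10 and 4.81, then 8.45, 5.83 and 3.92, then 3.81, 6.52 and 3.76. M1 was higher than N3 and N4, so this kinase did not order the libraries as BUB1B did (-0.42 ± 0.43 in M and -0.50 ± 0.43 in P). AURKB, the kinase of the chromosomal passenger complex, ranged from 0 in M2 to 10.1 in N3 (-3.27 ± 1.48 in M), PLK1 from 0.337 to 10.1 (-2.77 ± 1.02) and BUB1 from 0.613 to 12.8 (-1.79 ± 0.64).

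At centromeres and kinetochores, CENPF, a large kinetochore-associated protein, had a TPM of 7.10, 9.0, 7.41 and 2.72 in N, 1.55, 0.583 and 1.49 in M and 1.67, 5.78 and 1.52 in P. Every M library was below every N library, and P overlapped N through P2 (-2.79 ± 0.71 in M and -1.59 ± 0.67 in P). Its matched transcripts, coding and other, held 16.7% and 16.6% of the gene TPM. BIRC5, survivin of the chromosomal passenger complex, had 7.01, 14.5, 13.3 and 2.12, then 0.494, 0.424 and 2.48, then 0.687, 7.10 and 0.442. M3 exceeded N4, and P2 was level with N1 (-3.36 ± 1.20 in M and -1.92 ± 1.11 in P). CENPA, the centromeric histone, ranged from 0.0759 to 6.46 (-3.15 ± 1.25 in M), and CENPE, a kinetochore motor, from 0.823 to 10.3 (-1.01 ± 0.54 in M).

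Spindle genes included the smallest p of all members. ASPM, a protein of the spindle poles (GRCh38.p14 chromosome 1, 197084127 to 197146669), had a TPM of 2.13, 1.12, 1.27 and 0.496 in N, 0.190, 0.167 and 0.162 in M and 0.172, 1.57 and 0.795 in P. The 3 M libraries lay close together below all N libraries, while P spread over both (-2.62 ± 0.56 in M, edgeR unadjusted p = 0.000755 and adjusted p = 0.598; 1.95 ± 0.57 in P against M, edgeR unadjusted p = 0.00594). The ASPM transcripts matched in the transcript table held only 38.8% of its gene TPM and were at or near 0 in N4, M1 to M3, P1 and P3, so the gene value there came from entries not matched here. TPX2, which activates Aurora kinase A on the spindle, had 17.4, 18.9, 19.0 and 7.99, then 8.90, 5.29 and 6.78, then 2.77, 12.3 and 5.83. It was at least 2.77 throughout and N4 overlapped M and P (-1.32 ± 0.41 in M and -1.19 ± 0.41 in P). NUSAP1, a microtubule-binding protein, ranged from 0.0476 in M1 to 14.1 in N2 (-4.94 ± 1.25 in M and 2.48 ± 1.16 in P against M), and ANLN, anillin of the cleavage furrow, from 0.667 to 20.7 (-2.58 ± 0.85 in M).

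Genes of mitotic exit and chromatin had the lowest medians of the role groups in M. UBE2C, a ubiquitin-conjugating enzyme of the anaphase-promoting complex, had a TPM of 17.2, 38.5, 34.7 and 4.38 in N, 1.47, 0.553 and 3.06 in M and 1.86, 17.1 and 0.789 in P. All M libraries were below N4, the lowest N library, and P2 was next to N1 (-4.01 ± 1.15 in M and -1.98 ± 1.04 in P). CDC20, an activator of the same complex, ranged from 0.475 to 19.9 (-2.75 ± 1.05 in M). TOP2A, the topoisomerase that disentangles sister chromosomes, had 19.0, 9.41, 11.4 and 0.743, then 0.547, 0.178 and 1.05, then 0.199, 5.41 and 1.23. N4 was lower than M3, P2 and P3 (-4.29 ± 1.29 in M and -2.47 ± 1.17 in P). MKI67, the Ki-67 protein that coats mitotic chromosomes and is used as a stain for cycling cells (GRCh38.p14 chromosome 10, 128096659 to 128126423), had 397, 384, 472 and 47 counts in N, 1, 3 and 56 in M and 5, 247 and 22 in P. In TPM these were 3.89, 2.78, 2.41 and 0.325, then 0.00361, 0.00971 and 0.205, then 0.0163, 1.46 and 0.151. In TPM the M libraries lay below N, but in counts M3 had 56 and N4 had 47. Their named genes received 32813444 and 27891888 counts. P2, at 1.46 TPM, lay above N4 and below N1 to N3. M1 and M2 were near the limit of counting, so the fitted difference (-4.0 ± 1.56 in M and -1.83 ± 1.39 in P) rests on few reads there. Without M3 it was -7.50 in M, and without P2 it was -4.54 in P.

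**Figure D4:**
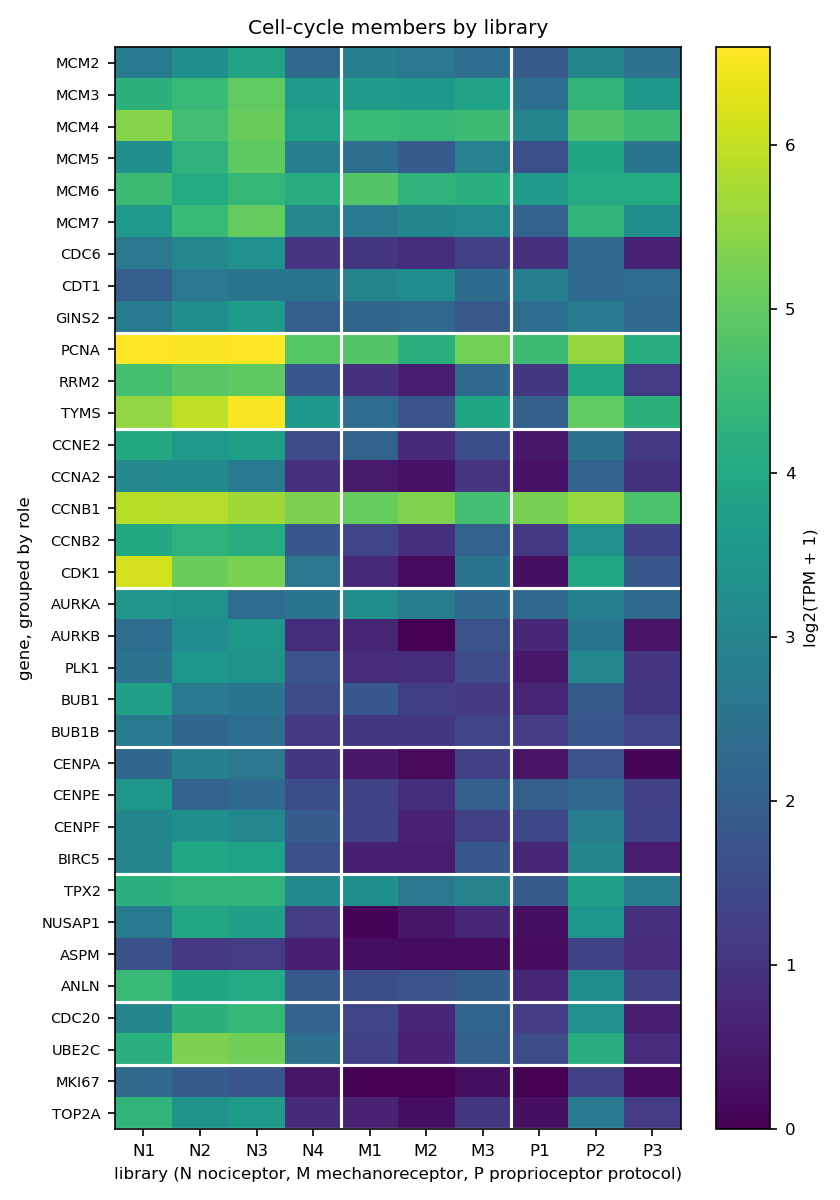
log2(TPM + 1) (colour) of the 34 members (rows, grouped by role with white lines) in the 10 libraries (columns, N, M and P). N1, N2, N3 and P2 are bright across most G2/M rows, whereas CCNB1, PCNA and MCM6 have a TPM of at least 23.8, 17.0 and 11.6 in every column.

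COL1A1, the main collagen of fibroblasts, had a TPM of 392, 506, 1984 and 17.0 in N1 to N4, 3.26, 2.88 and 366 in M1 to M3 and 1.77, 536 and 7.81 in P1 to P3. The values fell into 5 libraries from 1.77 to 17.0 and 5 from 366 to 1984, a gap of 4.43 on the log2 scale against 1.89 for the next gap. A correlation over libraries in separate clusters of 5 was therefore not computed. On the log2(TPM + 1) scale of the level, within each protocol the library with the least COL1A1 also had the lowest G2/M level (N4, M2 and P1), and the one with the most had the highest (N3, M3 and P2). Other summaries of the G2/M members changed this order in part. N2 was above N3 on log2 CPM (3.93 and 3.85), N3 was the lowest of N1 to N3 by the mean (3.43, with 3.45 and 3.51 in N1 and N2), and the summed TPM was higher in N1 than in N3 (308 and 288) and lower in P3 than in P1 (53.4 and 58.0). The S-phase level was also highest in N3, M3 and P2 and lowest in N4 and P1, but in M it was lowest in M1 (2.78, beside 2.82 in M2). Across protocols the match of the G2/M level was looser. M3 had 366 TPM of COL1A1, close to N1 (392), and a G2/M level of 1.68, whereas N1 had 3.10, and N4 with 17.0 TPM had 1.64.

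SOX10, a transcription factor of Schwann cells and neural crest, had a TPM of 34.2, 35.9, 48.2 and 7.91 in N, 0.732, 0.0136 and 17.7 in M and 1.33, 24.6 and 0.898 in P. N1 to N3, P2 and M3 were again the 5 highest. M3 and N4 lay closer together in SOX10 than in COL1A1, at 17.7 and 7.91. With log2(COL1A1 TPM + 1) as a covariate in edgeR, the median log2 fold change of the members was -1.12 in M and -0.64 in P against N. At an unadjusted p under 0.05 there were 15 and 2 members (27 and 10 without the covariate). In P against M there were 7 (1 without). The change was not the same for all members. In M against N the edgeR unadjusted p fell from 0.0264 to 0.000205 for MKI67 and from 0.00891 to 0.000646 for RRM2. For CCNE2 it rose from 0.0115 to 0.286. SOX10 as the covariate was an alternative chosen after seeing the data. Its medians were -0.76 (3 members) in M and -0.39 (0 members) in P, both against N. By edgeR 0 members passed the adjusted threshold with either covariate. COL1A1 and SOX10 themselves differed between the protocols, so these fits cannot tell a difference in cell mix from one of protocol. The part of glia, fibroblasts or progenitors in the differences was not tested. The summed TPM of 6 neural crest markers was 14.7 to 86.8 in N, 4.04 to 38.3 in M and 1.90 to 42.6 in P, that of 5 neural progenitor markers 5.81 to 32.4, 1.36 to 11.9 and 1.29 to 14.5, and that of the 6 measured pluripotency markers 2.83 to 8.81, 0.718 to 1.79 and 0.697 to 2.91.

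**Figure D5:**
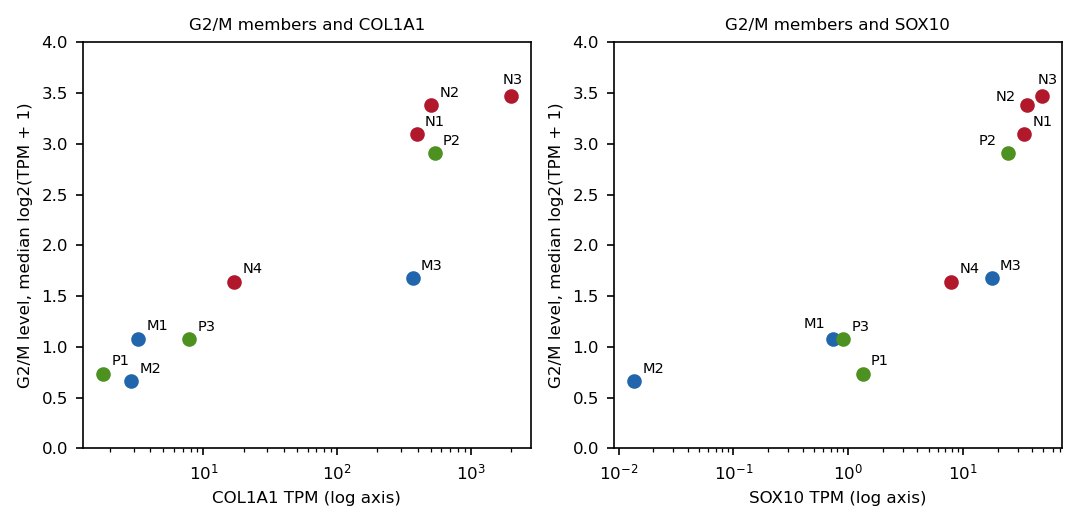
G2/M level (median log2(TPM + 1) of 21 members, vertical axis) against COL1A1 TPM (left) and SOX10 TPM (right), both on log axes, with 1 point per library of the nociceptor (red), mechanoreceptor (blue) and proprioceptor (green) protocol. M3 lies at 366 TPM of COL1A1 but at a G2/M level of 1.68, next to N4.

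Other genes of the cycle were read from textbook lists, against 4.59% (M) and 3.14% (P) of all genes that were lower at an unadjusted p under 0.05. Of 41 further DNA replication genes, 10 were lower at an unadjusted p in M and 4 in P, and 0 were higher. CLSPN, which relays replication stress to the checkpoint, had -1.74 ± 0.45 and -1.60 ± 0.45. MCM10, an initiation factor, had -3.49 ± 1.02 and -2.27 ± 0.96. Of 40 further mitosis genes, 25 were lower in M and 12 in P, with 0 higher. SPC25, NDC80 and NUF2, all subunits of the kinetochore complex that grips microtubules, had -3.52 ± 0.78, -3.07 ± 0.85 and -2.70 ± 0.76 in M. The list medians were -0.44 (replication) and -1.65 (mitosis) in M and -0.45 and -1.20 in P.

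Of 18 transcription regulators of the cycle, 6 were lower at an unadjusted p in M and 1 in P (E2F7). MYBL2, which activates G2/M genes at CHR elements, had a TPM of 5.09, 14.5, 21.3 and 1.37 in N, 0.114, 0 and 1.78 in M and 0.379, 6.20 and 0.437 in P. FOXM1, its later partner, had 2.31, 2.34, 5.15 and 1.00, then 0.181, 0.332 and 0.763, then 0.264, 2.46 and 0.776. For FOXM1 every M library was below every N library, and for MYBL2 M3 exceeded N4 (-2.94 ± 0.97 and -4.23 ± 1.65 in M). E2F2 and E2F8, an activating and a repressing E2F, had at most 0.772 and 0.558 TPM, and RBL1, a pocket protein, had -1.86 ± 0.59 in M.

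Of 8 G1 cyclins, their kinases and phosphatase, 1 was lower and 1 higher in M at an unadjusted p. CDK2, the kinase of cyclins E and A, had a TPM of 19.6, 21.5, 30.5 and 4.39 in N, 1.06, 0.409 and 6.89 in M and 0.840, 12.2 and 1.56 in P. It was highest in N1 to N3 and P2, as most G2/M members were (-2.86 ± 1.23 in M). CDC25A, the phosphatase that frees CDK2, went the other way, with 7.12, 5.46, 5.29 and 7.64, then 15.6, 15.5 and 12.7, then 3.13, 14.5 and 13.5. Every M library was above every N library (1.03 ± 0.31, edgeR unadjusted p = 0.00673 and adjusted p = 0.598), against 8.05% of all genes that lay higher without overlap. CDK4 stayed between 72.2 and 232 TPM (-0.70 ± 0.39 in M).

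Among 7 inhibitors of these kinases, 3 were lower in M and 1 was higher in P at an unadjusted p. CDKN1A (p21), a target of p53, had a TPM of 285, 688, 650 and 66.4 in N, 74.4, 77.2 and 226 in M and 47.9, 267 and 70.9 in P. It was high in N1 to N3, P2 and M3 (-1.91 ± 0.81 in M). CDKN2C (p18) had 0.224 to 13.7 TPM (-3.36 ± 1.31 in M) and CDKN1C (p57) 9.11 to 42.5 (-1.03 ± 0.35 in M and 1.36 ± 0.37 in P against M). CDKN2D (p19), which is kept on in postmitotic neurons, had 106 to 360 TPM and was lowest in N1 (1.06 ± 0.39 in P), and CDKN1B (p27) had 1.57 to 5.35 with no difference past its error (0.35 ± 0.45 in M). Of 16 replication-dependent histone genes 12 were tested, and at an unadjusted p 0 were lower and 1 was higher, H4C3 in P (1.75 ± 0.72), where 3.05% of all genes were higher. H4C3 had a TPM of 104, 262, 251 and 220 in N, 210, 430 and 149 in M and 960, 242 and 272 in P. P1 was highest and M2 next, and the other P libraries had 242 and 272 beside up to 262 in N. These transcripts mostly lack the poly(A) tail on which the cDNA kit primes.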

How the data were processed

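Poly(A)-primed bulk RNA-seq of 10 libraries was used. Trizol extraction, cDNA from the Clontech Ultra Low v4 kit, NexteraXT libraries and paired reads of 75 nt are given per the labels' protocols. Per the submitters' processing notes, kallisto 0.50.1 and GRCh38.p14 were used. The authors deposited estimated counts per gene and transcript, as whole numbers, and TPM values. How transcripts were summed to genes is not given in the sources used here. One entry with a blank name (0.733% to 1.66% of counts and 2.81% to 8.80% of TPM) was left out, which leaves the TPM of the other genes summing to less than the full scale by a share that differs between libraries.

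Groups came from the titles. edgeR 4.0.16 in R 4.3.3 was fitted to all 10 libraries (filterByExpr, TMM, quasi-likelihood F tests, two-sided contrasts, Benjamini-Hochberg over 16130 genes, threshold 0.05; common biological coefficient of variation 0.550). DESeq2 1.42.0 and limma 3.58.1 on log2(TPM + 1) and log2(TPM + 0.1) were alternatives, with other scaling, filters, samples, a replicate block, covariates and left-out libraries. The scripts were tested on simulated data. No library was a copy of another (chi-square per degree of freedom at least 123).

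The members, lists and tests were chosen with earlier results of these data known. In each role group, values in every library are given for the member with the highest mean TPM and the one with the smallest p, and for MKI67, TOP2A, PCNA and CCNE2; in each pathway list, for the 3 genes with the smallest p and MYBL2, FOXM1, CDKN1A and CDKN1B, in full or as ranges; 1 of these genes is not reported here. Promoters were printed for the 3 members of each class with the smallest p that had an entry off chromosome 8. Library names run in order of replicate number, but the labels do not say whether same-numbered libraries were made together. Deviations of same-numbered libraries correlated from -0.65 to 0.51 over 9 pairs, and those of other pairs from -0.61 to 0.81. These correlations cannot tell whether the numbers pair the libraries. Estimated counts come from PCR-amplified cDNA, so they are not independent molecules. Transcripts were named through GENCODE by their identifiers.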

Additional observations from a re-analysis of the deposited data

Results flagged for a closer look

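Of 34 members, 3 had a nociceptor library far from the other 3 of its group, where chance gives about 1 in 20. PCNA had its lowest TPM, 28.1, in N4, against 93.5 to 95.9 in N1 to N3. TPX2 was also lowest in N4, at 7.99, against 17.4 to 19.0. CDT1 was lowest in N1, at 2.89, against 4.77 to 5.12.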

How the results depend on the processing

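By edgeR, 0 members passed the adjusted threshold under any alternative run, in any of the 3 contrasts. DESeq2 called 137 genes and 14 members in mechanoreceptor against nociceptor libraries, 31 genes and 0 members in proprioceptor against nociceptor, 1 gene in proprioceptor against mechanoreceptor, and 91 genes and 9 members across the 3 protocols. The cause was not tested. In mechanoreceptor against nociceptor libraries the median of the members was -1.47 with limma on log2(TPM + 1), a scale that compresses low genes, -1.12 with COL1A1 and -0.76 with SOX10 as a covariate. With these covariates 15 and 3 members had an unadjusted p under 0.05, MCM4 turned to 0.18 and 0.21, and 3 genes were called with SOX10. The SOX10 fits were added after seeing the data.

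In proprioceptor against nociceptor libraries the members at an unadjusted p under 0.05 numbered 20 by DESeq2, 16 with no filter, 2 with COL1A1 and 0 with SOX10. With SOX10, 1 gene was called, the median was -0.39 and MKI67 turned to 0.28, while MCM4 turned to 0.011 with COL1A1. In proprioceptor against mechanoreceptor libraries this count was 3 by DESeq2, 2 with no filter, 0 with limma at either pseudocount, 7 with COL1A1 and 4 with SOX10. There TPX2 turned to -0.17 and -0.22 with limma on log2(TPM + 1) and log2(TPM + 0.1), -0.039 with COL1A1 and -0.12 with SOX10, and CCNE2 to -0.13, -0.36, -0.68 and -0.89. Across the 3 protocols, 3 genes were called with SOX10.

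With the replicate number as a block, the members at an unadjusted p numbered 30, 20 and 2 in the 3 contrasts (27, 10 and 1 without). After adjustment 0 passed. Whether the numbers pair the libraries is not known.

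Leaving out 1 library at a time, the count of members ranged from 19 to 30 in mechanoreceptor against nociceptor, 0 to 24 in proprioceptor against nociceptor and 1 to 8 in proprioceptor against mechanoreceptor libraries (8 without M3, 3 without P3, 2 without N4 or P1). The medians ranged from -2.89 to -2.38, from -2.51 to -1.28 and from -0.12 (without P2) to 0.99. Against nociceptor libraries some named members moved by over 1.5 times. In mechanoreceptor libraries MKI67 was -7.50 and BIRC5 -5.24 without M3, AURKA -0.20 without N2, -0.78 without M1 and -0.25 without M3, and MCM4 -0.14 without N3 and -0.61 without N4. In proprioceptor libraries without P2, MKI67 was -4.54, TOP2A -4.88, UBE2C -3.80, CCNE2 -4.41, BIRC5 -3.62, CCNA2 -3.10, ASPM -1.11 and MCM4 -0.73. There ASPM was -0.21 without N1 and -0.37 without P1, MCM5 -0.81 without N3, AURKA -0.28 without N2 and -0.33 without P3, CCNB1 -0.23 without N2, -0.75 without P1 and -0.15 without P3, and MCM4 -0.22 without N3, -0.68 without N4 and -0.28 without P1. In the last contrast single members changed sign: AURKA from -0.30 to 0.23, MCM4 from -0.30 to 0.13, MKI67 from -0.50 to 5.66, TOP2A from -0.53 to 2.72, TPX2 from -0.30 to 0.34, BIRC5 from -0.23 to 3.30 and CCNE2 from -1.32 to 1.18.

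The S-phase minus G2/M level was 1.28 (N), 2.39 (M) and 1.97 (P) on log2(TPM + 0.1), 1.35, 2.79 and 2.28 on log2 CPM, and 0.67 (N), 1.06 (M) and 1.05 (P) without the MCM genes. In the 150 bases before to 50 after the start, E2F words were in 5.88% of G2/M members and 2.85% of all genes, CHR words in 18.3% and CCAAT in 31.1% of all genes; that window is shorter.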

Other observations

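Transcript-level values, examined after the gene values had been seen, gave a closer view of 3 members. For CCNB1, whose gene level varied little, the coding transcript CCNB1-204 took 44.0% of the transcript TPM summed over libraries and ranged from 10.2 to 24.6 TPM. The coding CCNB1-201 took 23.2%, and CCNB1-207, annotated as retaining an intron, took 12.5% and had its highest value, 10.3, in N4. For CDK1, the coding CDK1-203 and CDK1-207 took 48.4% and 47.6%, and CDK1-203 was at 0 in M2. For MKI67, transcripts without a protein-coding annotation took 54.3%, among them MKI67-204 at 31.7%. The coding MKI67-202 took 37.1% and was at 0 in M1, M2 and P1. These divisions are estimates for transcripts that share most of their sequence. For ASPM and CENPF the matched transcripts covered only part of the gene: 38.8% of the gene TPM for ASPM, and 16.7% on coding and 16.6% on other transcripts for CENPF, so no division is given for them.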
